A study of Mus musculus with 8 samples.

Results

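The genes of bone morphogenetic protein (BMP) signalling and of the Id family were followed in mouse embryonic stem cells (ESCs) depleted of the acetyltransferase Tip60, of the deacetylase Hdac6, or of both. The group held every non-control probe whose gene name in the scanner files was Bmp4, Bmpr1a, Smad1, Smad5, Smad6, Id1, Id2, Id3, Id4 or Dusp9. This gave 14 probes of 10 genes, out of 39429 probes with 30175 gene names on the array. The cells were E14 ESCs, grown without feeders on gelatin in serum medium with the cytokine LIF, and all groups were given short hairpin RNA by lentiviral infection and harvested 72 hours later. Control KD (knockdown) cells received a hairpin against GFP, which the labels also call EGFP, Tip60 KD and Hdac6 KD cells a hairpin against that gene, and double KD cells were depleted of both. Whether the double KD cells received the hairpins in separate viruses is not given in the sources used here. A single hairpin served for each gene, so effects of a hairpin on other transcripts cannot be told apart from those of its target. Each group had 2 biological replicates, A and B, on 1 array each. The 8 arrays report relative mRNA abundance in bulk cultures, in which fewer cells of a type and less RNA per cell cannot be told apart.

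BMP ligands bind paired type I and type II receptor kinases, and the type I receptor phosphorylates Smad1 and Smad5, which enter the nucleus with Smad4 and activate target genes. The Id genes are the classical targets, and Smad6, itself induced by the pathway, feeds back to inhibit it. Id proteins hold a helix-loop-helix but no DNA-binding region, so that they capture E proteins and keep them off DNA. In mouse ESCs cultured with LIF, BMP4 and Id proteins are known for holding back neural differentiation, and Dusp9, a phosphatase that inactivates ERK kinases, is known as a BMP-induced gene there.

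The start site regions of Id2, Id3, Id4 and Smad6 are shown as those of the known targets of the pathway among the 10 genes for which the RefSeq table held a promoter. Each runs 5′ to 3′ along the gene's own strand, from 250 bases before to 30 bases after the start, on build GRCm38.p6. Capitals mark matches to 4 motifs searched on both strands: GGCGCC, known as a GC-rich Smad element, GTCTAGAC, the palindromic Smad box, CACGTG, an E-box, and CCAAT. The motifs were chosen after the sequences were seen. None of the motifs shares letters with another in these windows.
Id2: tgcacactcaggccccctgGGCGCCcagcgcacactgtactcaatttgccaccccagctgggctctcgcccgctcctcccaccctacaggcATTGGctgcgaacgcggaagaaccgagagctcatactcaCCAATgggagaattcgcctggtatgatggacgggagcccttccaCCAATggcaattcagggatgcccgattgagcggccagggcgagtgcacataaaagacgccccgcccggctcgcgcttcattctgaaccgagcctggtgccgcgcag
Id3: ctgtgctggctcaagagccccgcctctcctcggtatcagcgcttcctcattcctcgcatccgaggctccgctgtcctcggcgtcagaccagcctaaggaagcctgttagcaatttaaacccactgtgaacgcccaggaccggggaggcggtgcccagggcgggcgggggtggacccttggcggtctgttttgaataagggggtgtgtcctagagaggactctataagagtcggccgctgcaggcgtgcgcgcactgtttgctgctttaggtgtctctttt
Id4: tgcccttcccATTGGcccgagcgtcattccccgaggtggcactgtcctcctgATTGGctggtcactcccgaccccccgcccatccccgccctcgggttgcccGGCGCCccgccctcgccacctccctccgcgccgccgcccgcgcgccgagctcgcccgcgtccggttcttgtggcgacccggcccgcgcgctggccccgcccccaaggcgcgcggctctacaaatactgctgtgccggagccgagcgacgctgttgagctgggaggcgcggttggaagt
Smad6: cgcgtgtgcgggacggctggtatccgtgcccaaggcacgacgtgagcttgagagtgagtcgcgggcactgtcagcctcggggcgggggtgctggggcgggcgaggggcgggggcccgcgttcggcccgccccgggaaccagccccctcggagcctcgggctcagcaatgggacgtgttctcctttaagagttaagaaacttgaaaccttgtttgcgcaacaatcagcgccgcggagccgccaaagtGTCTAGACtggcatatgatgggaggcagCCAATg

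The Id2 window lies at chr12:25096063-25096342 on the minus strand and the Id3 window at chr4:136143572-136143851 on the plus strand. The Id4 window lies at chr13:48260866-48261145 on the plus strand and the Smad6 window at chr9:64022030-64022309 on the minus strand. GGCGCC was present in the Id2 and Id4 windows, starting 231 and 148 bases before the start, and in 10.95% of all 32851 RefSeq windows of 280 bases. GTCTAGAC began 4 bases before the Smad6 start and was found in 0.192% of windows. The Id2 window held CCAAT 3 times, the Id4 window 2 times and the Smad6 window 1 time, after the start, against at least 1 match in 36.1% of windows. The Id3 window held none of the 4 motifs. Of the 10 genes, 8 had a RefSeq promoter, and Id1 and Dusp9 had no entry in the table. Among the other windows, GGCGCC was present in that of Bmpr1a and in 2 of the 3 Smad5 windows, CACGTG in that of Bmp4, and CCAAT in those of Bmpr1a and Smad1 and in 2 Smad5 windows. A match in letters says nothing about binding in these cells.

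Signals are given as log2 of the background-subtracted intensity divided by the 75th percentile of the same array, so that 0 stands for that percentile. Values under a common floor of -2.71 were raised to it, and a change was called at a limma adjusted p under 0.1 over all 18116 genes tested. All 10 genes were tested. Replicate A of every group lay on 1 slide and replicate B on a second slide. Of the 43020 non-control spots on each array, between 21896 and 40609 were well above background. ESC identity was checked on 10 markers, all of which passed the filter on low signal. Of these, 4 were higher in Tip60 KD, beside 39.7% of all genes called, and 3 were higher in Hdac6 KD, beside 28.9%. In double KD 4 were higher and 1 lower, beside 32.8%. The median changes of the 10 were 0.22, -0.004 and 0.20. Pou5f1, which encodes Oct4, rose by 1.01, 0.47 and 0.63 (adjusted p 0.00277, 0.0453 and 0.0171). By group mean levels, Nanog, Sox2, Dppa5a and Fgf4 made up smaller shares of the summed marker signal in Tip60 KD than in control KD, and the other markers larger ones. Kat5, which encodes Tip60, stood at 39.2% of control KD in Tip60 KD and 40.4% in double KD, and Hdac6 at 17.8% in Hdac6 KD and 27.3% in double KD. Hdac6 also stood at 73.9% in Tip60 KD (log2 change -0.44, adjusted p 0.00622).

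**Figure D1:**
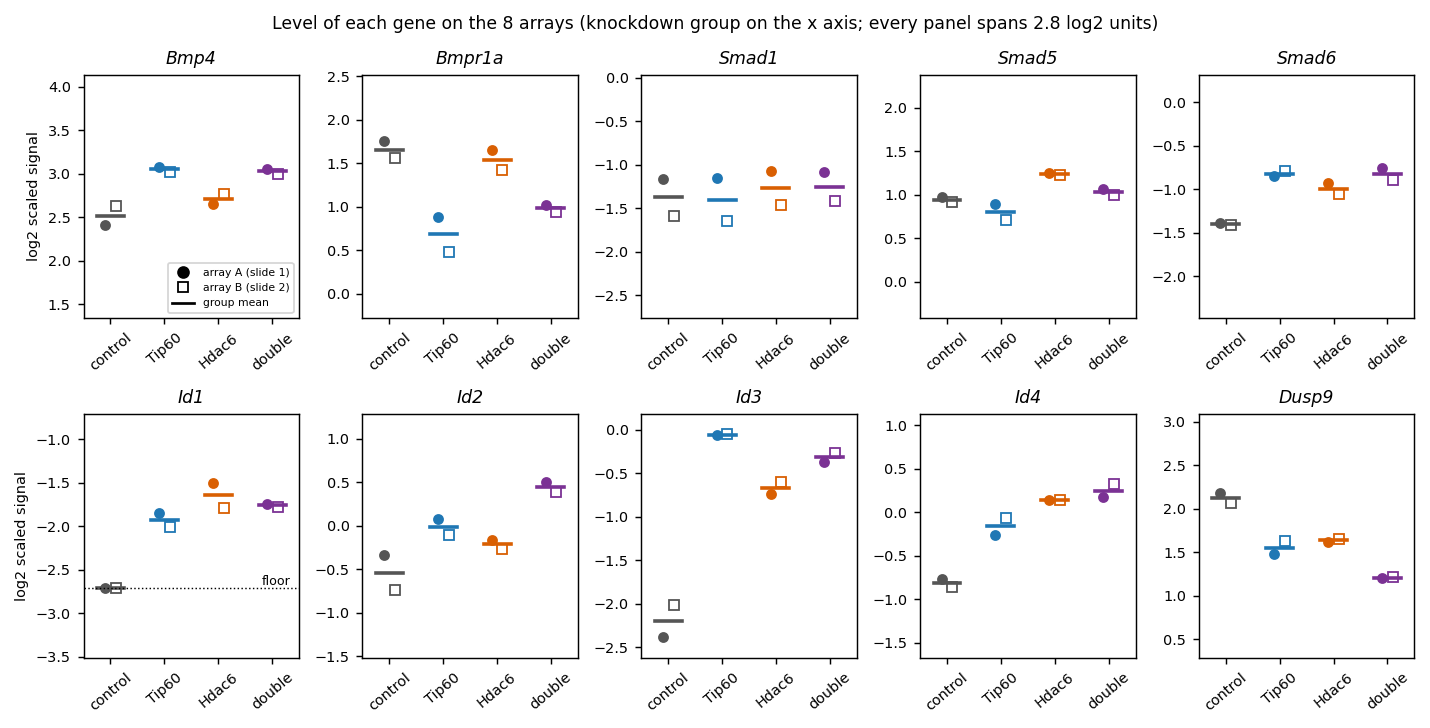
Log2 scaled signal of the 10 genes on the 8 arrays. Filled circles are arrays A, open squares arrays B and bars the mean of the 2 arrays of a group. The group means lie furthest apart for Id3, and the dotted line in the Id1 panel is the floor.

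Upon Tip60 KD, Bmp4, Smad6 and all 4 Id genes were higher than in control KD, Bmpr1a and Dusp9 were lower, and Smad1 and Smad5 were not called. This makes 8 of the 10 genes, beside 39.7% of all genes tested. Upon Hdac6 KD, Smad5, Smad6, Id1, Id3 and Id4 were higher and Dusp9 lower, which is 6 of 10 beside 28.9% of all genes. In double KD, Bmp4, Smad6 and the 4 Id genes were higher and Bmpr1a and Dusp9 lower, which is 8 of 10 beside 32.8%. All 3 comparisons share the control KD arrays. Id1 lay at the floor on these arrays and passed the filter on low signal through the knockdown arrays alone. In these counts Id1 could therefore only come out higher.

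Id3 moved furthest of the 10 genes in each knockdown. Its probe (mm9, chromosome 4, 135700075 to 135700249) gave -2.38 (array A) and -2.01 (array B) for control KD, -0.06 and -0.05 for Tip60 KD, -0.74 and -0.60 for Hdac6 KD, and -0.36 and -0.26 for double KD. The control KD arrays were the lowest, and the arrays of the 4 groups did not overlap. Id3 rose by 2.14 (SE 0.14, adjusted p 0.000679), or 4.41-fold, in Tip60 KD. The rise was 1.53 (SE 0.14, adjusted p 0.00270), or 2.88-fold, in Hdac6 KD and 1.88 (SE 0.14, adjusted p 0.00150), or 3.69-fold, in double KD. Id3 was called in all 3 knockdowns under each of the 18 alternatives, with changes between 1.81 and 2.33 for Tip60 KD, 1.19 and 1.71 for Hdac6 KD, and 1.52 and 2.07 for double KD.

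Id4, expressed in neural precursors among other cells, rose as well. The probe (chromosome 13, 48358668 to 48358727) gave -0.77 and -0.87 for control KD, -0.26 and -0.07 for Tip60 KD, 0.14 and 0.13 for Hdac6 KD, and 0.17 and 0.32 for double KD. Both control KD arrays lay under all 6 others, and Tip60 KD lay between control KD and the groups depleted of Hdac6. The changes were 0.65 (SE 0.10, adjusted p 0.00609), 0.95 (adjusted p 0.00405) and 1.06 (adjusted p 0.00256) in Tip60, Hdac6 and double KD, or 1.57-fold, 1.93-fold and 2.09-fold.

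Id2 had its highest level in double KD. Its probe (chromosome 12, 25778904 to 25778963) gave -0.34 and -0.73 for control KD, 0.07 and -0.10 for Tip60 KD, -0.16 and -0.26 for Hdac6 KD, and 0.51 and 0.39 for double KD. The double KD arrays stood above all others, and the control KD arrays, which differed from each other by more than those of any other group, stood below. Id2 rose by 0.52 (SE 0.15, adjusted p 0.0438) in Tip60 KD and by 0.99 (SE 0.15, adjusted p 0.00783) in double KD, and the change in Hdac6 KD was 0.33 (adjusted p 0.192). Without control KD array B the Tip60 KD change was 0.33 (adjusted p 0.141), and without Tip60 KD array A it was 0.43 (adjusted p 0.180). In Hdac6 KD the change passed the threshold under 5 of 18 alternatives, among them the replicate block (adjusted p 0.0297, where 52.9% of all genes were called) and leaving out control KD array A (0.52, adjusted p 0.0741).

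Id1 could not be measured above the floor in control KD. The probe (chromosome 2, 152563083 to 152563142) lay at the floor on both control KD arrays, at -2.77 and -3.20 before the floor was applied, and array B was not well above background. It gave -1.84 and -2.01 for Tip60 KD, -1.50 and -1.79 for Hdac6 KD, and -1.74 and -1.77 for double KD. All 6 knockdown arrays were above both control KD arrays. Upon Tip60 KD Id1 rose by 0.79 (SE 0.12, adjusted p 0.00503), upon Hdac6 KD by 1.07 (adjusted p 0.00425) and upon double KD by 0.95 (adjusted p 0.00447). These sizes depend on the floor: with a low floor they were 1.06, 1.34 and 1.23. As both control KD arrays were set to the same value, their SD was 0. The SE and adjusted p of Id1 therefore leave out the difference between these 2 arrays before the floor. After quantile normalization the Tip60 KD change was 0.61 (adjusted p 0.107).

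Smad6, the inhibitory Smad, rose less than Id3. Its probe (chromosome 9, 63800980 to 63801039) gave -1.38 and -1.41 for control KD, -0.84 and -0.79 for Tip60 KD, -0.92 and -1.06 for Hdac6 KD, and -0.76 and -0.89 for double KD. The knockdown arrays lay close together, above control KD. Smad6 changed by 0.58 (SE 0.09, adjusted p 0.00548), 0.40 (adjusted p 0.0267) and 0.57 (adjusted p 0.00826) in Tip60, Hdac6 and double KD. The Hdac6 KD call was lost under 5 of 18 alternatives, including without control KD array B (0.39, adjusted p 0.110) and without Hdac6 KD array A (0.34, adjusted p 0.123).

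Background subtraction moved with the control group and could reach dim probes such as those of Id1, Id3 and Smad6. The median background subtracted was 61.0 intensity units on control KD array A, against 37.2 to 39.4 on the other arrays of that slide, and 114 on control KD array B, against 41.4 to 89.0. The mean signal of the Id3 spot before any subtraction was 332 and 430.5 for control KD, 1489 and 1387 for Tip60 KD, 918 and 879 for Hdac6 KD, and 1088 and 982.5 for double KD. That of Id1 was 272 and 236 in control KD and between 371 and 556 on the 6 knockdown arrays. In the unsubtracted signal, too, every knockdown array lay above both control KD arrays for these 2 genes. With the median of the negative control spots subtracted instead, which differed little between arrays (33.6 to 37.2), Id3 changed by 1.98, 1.32 and 1.67 and Id1 by 0.91, 1.05 and 0.89 in Tip60, Hdac6 and double KD.

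Of the ligand and its receptor, Bmp4 rose and Bmpr1a fell where Tip60 was depleted. Bmp4, the ligand, gave 2.41 and 2.63 for control KD, 3.08 and 3.03 for Tip60 KD, 2.65 and 2.77 for Hdac6 KD, and 3.06 and 3.00 for double KD (chromosome 14, 47003391 to 47003450). The Tip60 KD and double KD arrays overlapped each other and lay above the other 4. The changes were 0.53 (SE 0.10, adjusted p 0.0113) in Tip60 KD, 0.20 (adjusted p 0.244) in Hdac6 KD and 0.51 (adjusted p 0.0177) in double KD.

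Bmpr1a, a type I BMP receptor, gave 1.76 and 1.56 for control KD, 0.89 and 0.49 for Tip60 KD, 1.66 and 1.42 for Hdac6 KD, and 1.02 and 0.95 for double KD (chromosome 14, 35224339 to 35224398). Control and Hdac6 KD overlapped, and the 4 arrays depleted of Tip60 lay under them. Bmpr1a fell by 0.97 on the log2 scale (SE 0.16, adjusted p 0.00753) in Tip60 KD, to 50.9% of control, and by 0.67 (adjusted p 0.0326) in double KD, to 62.7%. Its change in Hdac6 KD was -0.12 (adjusted p 0.685). The double KD call was lost without control KD array A (-0.58, adjusted p 0.151), without double KD array A (-0.71, adjusted p 0.104) and without double KD array B (-0.64, adjusted p 0.133).

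The signal-transducing Smads moved little. Smad1 read between -1.65 and -1.08 on the 8 arrays (chromosome 8, 81863015 to 81863074), with array A above array B in every group, and its changes of -0.03, 0.11 and 0.12 (SE 0.25) in Tip60, Hdac6 and double KD were not called. Smad5 gave 0.97 and 0.91 for control KD, 0.90 and 0.71 for Tip60 KD, 1.25 and 1.23 for Hdac6 KD, and 1.07 and 1.00 for double KD (chromosome 13, 56843578 to 56843637). The Hdac6 KD arrays were the highest, by 0.30 over control KD (SE 0.09, adjusted p 0.0718), a call that was lost under 10 of 18 alternatives. Among these were each control KD array left out (0.33 and 0.27), each Hdac6 KD array left out (0.28 and 0.31) and each double KD array left out (0.30 in both cases, adjusted p 0.102). In Tip60 KD and double KD the changes of Smad5 were -0.14 (adjusted p 0.316) and 0.09 (adjusted p 0.554).

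Dusp9 was lower in each knockdown and lowest in double KD. Its probe (chromosome X, 70888467 to 70888526) gave 2.18 and 2.07 for control KD, 1.48 and 1.63 for Tip60 KD, 1.62 and 1.65 for Hdac6 KD, and 1.20 and 1.22 for double KD. Control KD stood above, double KD below, and the 2 single knockdowns overlapped. Dusp9 fell by 0.57 (SE 0.09, adjusted p 0.00521) in Tip60 KD, by 0.49 (adjusted p 0.0146) in Hdac6 KD and by 0.91 (adjusted p 0.00236) in double KD, to 67.3%, 71.3% and 53.0% of control.

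**Figure D2:**
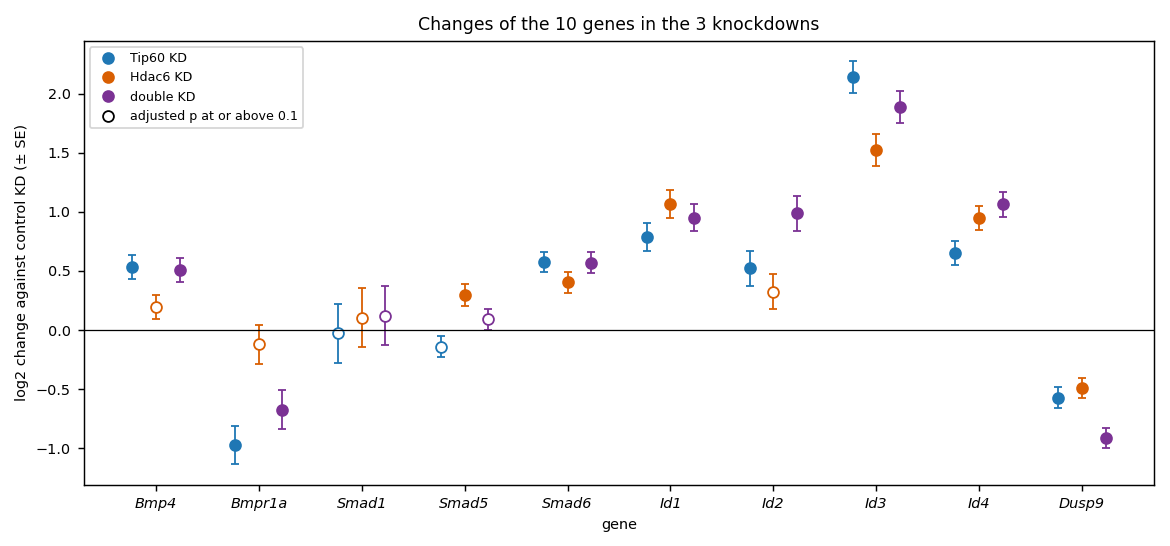
Log2 change against control KD with its standard error for each gene, by knockdown (n = 2 arrays a group). Filled points passed the adjusted p of 0.1 and open points did not; Id3 stands highest in each knockdown, and Bmpr1a and Dusp9 lie below 0.

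Further probes were present for Bmp4, Smad1 and Smad5. The second Bmp4 probe, the third Smad1 probe and the second Smad5 probe were at the floor on all 8 arrays and were not tested. The second Smad1 probe (chromosome 8, 81880234 to 81880293) was well above background on 8 arrays and not called in any comparison, with adjusted p between 0.830 and 1. Unlike the first probe, it read lower on array A than on array B in each group.

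The knockdowns were then compared with each other, to ask whether the 2 depletions had unlike effects. Between Tip60 KD and Hdac6 KD, 4 of the 10 genes were called, beside 23.5% of all genes. Id3 was higher in Tip60 KD by 0.62 (SE 0.14, adjusted p 0.0326) and Bmp4 by 0.34 (SE 0.10, adjusted p 0.0782). Bmpr1a was lower in Tip60 KD, by a difference of -0.85 (SE 0.16, adjusted p 0.0219), and Smad5 too, by -0.44 (SE 0.09, adjusted p 0.0277). The split of 2 higher and 2 lower became 1 and 3 under normexp correction, the series matrix values and the negative control background. With the replicate block 6 genes were called, beside 41.5% of all genes, as Id1 (-0.28, adjusted p 0.0532) and Id4 (-0.30, adjusted p 0.0480) were then also lower in Tip60 KD.

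These 4 calls rested on single arrays to different degrees. The Bmp4 call was lost under 13 of 18 alternatives, among them each Tip60 KD array left out (0.31 and 0.36), each Hdac6 KD array left out (0.28 and 0.40) and each double KD array left out (0.34 in both cases, adjusted p 0.119). The Id3 call was lost without either Tip60 KD array (0.62 and 0.61) or either Hdac6 KD array (0.55 and 0.68), with adjusted p between 0.105 and 0.161. Smad5 was not called without Tip60 KD array B (-0.34), Hdac6 KD array A (-0.42) or Hdac6 KD array B (-0.45). Bmpr1a was not called without Hdac6 KD array A (-0.73, adjusted p 0.121).

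Double KD differed from Hdac6 KD in 2 of the 10 genes, beside 10.1% of all genes. Id2 was higher in double KD by 0.66 (SE 0.15, adjusted p 0.0672) and Dusp9 lower, by -0.43 (SE 0.09, adjusted p 0.0508). Both calls were lost when any Hdac6 KD or double KD array was left out, with Id2 between 0.60 and 0.72 and Dusp9 between -0.44 and -0.41, and that of Id2 also without either Tip60 KD array (adjusted p 0.110). With the replicate letter as a block, 6 genes were called, beside 29.4% of all genes: Bmp4, Id2 and Id3 higher and Bmpr1a, Smad5 and Dusp9 lower.

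Between double KD and Tip60 KD 0 of the 10 genes were called by limma, beside 3.71% of all genes. An unadjusted limma p under 0.05 was reached by 4. The share of all genes at that threshold was not counted, so that this is not a result about the 10 genes. The largest differences were 0.46 for Id2 (SE 0.15, adjusted p 0.199) and 0.41 for Id4 (SE 0.10, adjusted p 0.130). With the replicate block 5 genes passed, beside 26.2% of all genes, namely Id2, Id4, Bmpr1a and Smad5 higher and Dusp9 lower.

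The interaction contrast asks whether the change in double KD equals the sum of the single changes on the log2 scale. For Id3 the single changes summed to 3.67, whereas double KD changed by 1.88, an interaction of -1.78 (SE 0.19, adjusted p 0.00912). For Id1 the sum was 1.85 against 0.95 (interaction -0.90, SE 0.17, adjusted p 0.0236), for Id4 1.60 against 1.06 (-0.54, SE 0.14, adjusted p 0.0629) and for Smad6 0.98 against 0.57 (-0.41, SE 0.12, adjusted p 0.0852). These 4 of 10 genes were called, beside 22% of all genes tested, and each had a double KD change smaller than the sum. Id2 behaved otherwise in value, with a sum of 0.85 and a double KD change of 0.99 (interaction 0.14, adjusted p 0.743). Dusp9 had a sum of -1.06 against -0.91 (adjusted p 0.522). With the replicate block the interaction of Bmpr1a was called as well (0.42, adjusted p 0.0448), which makes 5 genes beside 47.1% of all genes.

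The Id3 interaction was called under each of its 17 alternatives, between -1.97 and -1.48. That of Smad6 was lost under 14 of 17, among them every array left out in turn (-0.48 to -0.34). That of Id4 was lost under 8 of 17, including without control KD array A (-0.59), control KD array B (-0.49), Tip60 KD array B (-0.44), either Hdac6 KD array (-0.54 in both cases) or array A of double KD (-0.46). The Id1 interaction, for which the control KD level is the floor, was lost under quantile normalization (-0.79), the series matrix values (-0.89) and the low floor (-1.17). Residual Kat5 and Hdac6 levels differed between single and double KD as given above, and their part in these values was not tested.

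**Figure D3:**
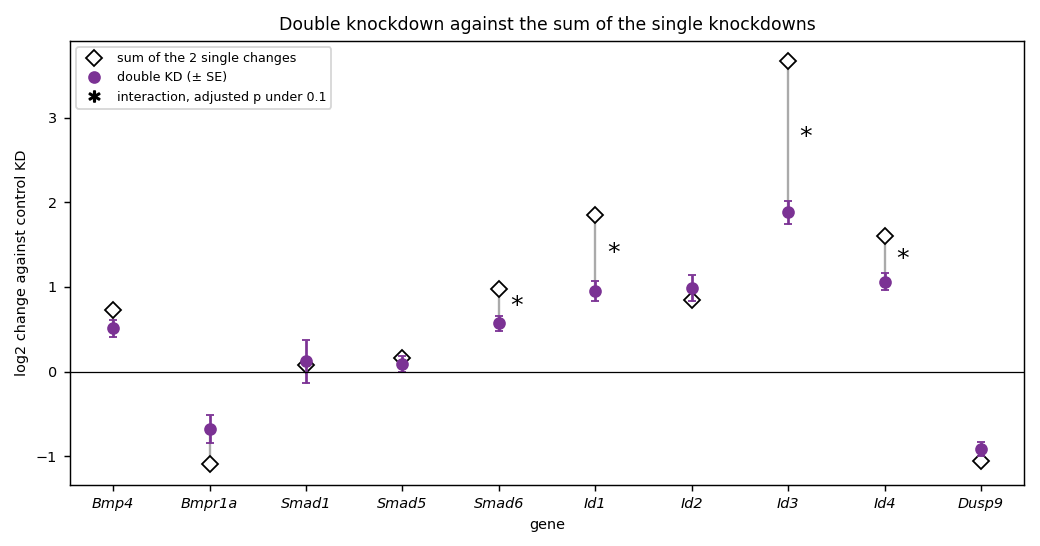
Sum of the log2 changes in the 2 single knockdowns (diamonds) and the change in double KD (circles, with SE) for each gene. Stars mark interactions with an adjusted p under 0.1; for Id3 the sum is 3.67 and the double KD change 1.88.

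Other genes of the pathway were taken from lists. Of 14 other BMP ligands 7 were tested, and 1 was called in each knockdown: Gdf3, a Nodal-related ligand that can also inhibit BMPs, rose by 0.75, 0.50 and 0.57 in Tip60, Hdac6 and double KD (adjusted p 0.00319, 0.0188 and 0.0110). The median change of the 7 was 0.03, 0.12 and 0.17 in the same order, beside medians over all genes of 0.06, 0.03 and 0.05. With all Gdf3 probes averaged its Tip60 KD change was 0.40.

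Of 10 other receptors and co-receptors 8 were tested. Tip60 KD had 3 higher and 3 lower, Hdac6 KD 1 and 2, and double KD 1 and 2, and their medians were -0.09, -0.25 and 0.01. Bmpr1b, a type I receptor related to Bmpr1a, rose by 0.71 (SE 0.07, adjusted p 0.00187) in Tip60 KD and 0.71 (adjusted p 0.00323) in double KD, while Bmpr1a fell in both. With the series matrix values the Bmpr1b changes were 0.36 and 0.42 and were not called (adjusted p 0.119 and 0.105). Acvr2b, a type II receptor for activins and BMPs, fell by 0.64, 0.33 and 0.42 in the 3 knockdowns. Its Hdac6 KD call was lost under 13 of 18 alternatives, including any control, Tip60 or Hdac6 KD array left out (-0.41 to -0.25). The double KD call was lost under 6, including without control KD array B (-0.34) and double KD array A (-0.32). Acvrl1, a type I receptor, was higher in Tip60 KD by 0.68 (adjusted p 0.0744), a call lost under 10 of 18, including without control KD array A (0.40), either Tip60 KD array (0.79 and 0.57) or either Hdac6 KD array (0.68).

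Of 17 other Smads and Smad regulators 16 were tested, with 5 higher and 1 lower upon Tip60 KD, 2 and 2 upon Hdac6 KD, and 4 and 1 upon double KD. Their medians were 0.10, 0.04 and 0.19. Zfp423, a zinc finger protein that binds BMP-activated Smads, rose by 1.53 (SE 0.10, adjusted p 0.000679), 1.47 (adjusted p 0.00174) and 1.60 (adjusted p 0.00113), from a mean of -1.42 in control KD to 0.11, 0.05 and 0.18. It was called under all 18 alternatives in each knockdown. Skil, a corepressor of Smads, fell by 1.08, 0.67 and 0.86 (adjusted p 0.00139, 0.00991 and 0.00402). With all Skil probes averaged the changes were -0.32, -0.12 and -0.32, and that in Hdac6 KD was not called (adjusted p 0.508). Schip1 rose by 0.83 in Tip60 KD and 0.42 in double KD (adjusted p 0.00281 and 0.0321), the latter not called without control KD array A (0.39) or double KD array A (0.34). Schip1 was counted in this list, but its place among Smad regulators was not checked here.

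Of 20 extracellular antagonists and modulators 9 were tested, and Noggin (Nog), Grem1 and Fst were among those that were not. Tip60 KD had 1 higher and 2 lower, Hdac6 KD 0 and 2, and double KD 1 and 2, with medians of 0.17, 0.02 and 0.19. Twsg1, a modulator that binds BMPs with chordin, fell by 0.78, 0.43 and 0.55. The Hdac6 KD call of Twsg1 was lost under 9 of 18 alternatives, with any control, Hdac6 or double KD array left out among them (-0.54 to -0.33). Its double KD call was lost without control KD array A (-0.45) or double KD array B (-0.49). Fstl3, a follistatin relative that binds activins, fell by 0.67, 1.14 and 0.99, the first of these not called with the series matrix values (-0.67, adjusted p 0.114). Both Hdac6 KD arrays of Fstl3 lay at the floor, so that the size of that change depends on it. Bmp1, a protease that cleaves chordin, rose by 0.39 in Tip60 KD and 0.44 in double KD, and neither change was called with all its probes averaged.

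Of 15 other BMP target genes 9 were tested. In Tip60 KD and double KD 1 was higher and 1 lower, and in Hdac6 KD 1 was lower, with medians of 0.14, -0.01 and 0.17. The gene that fell was Hey1, a Notch and BMP target, by 0.81, 0.78 and 0.62 (adjusted p 0.00314, 0.00683 and 0.0105). Gata2 was higher by 0.58 and 0.55 in Tip60 and double KD, with 3 arrays at the floor and the calls lost under 3 and 4 of 18 alternatives. Of the 9 tested, 7 were not called in Tip60 KD or in double KD, and 8 were not called in Hdac6 KD.

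E proteins, the partners of Id proteins, were all tested (3 of 3). Tcf12 fell by 0.49 in Tip60 KD (SE 0.11, adjusted p 0.0205). Tcf4 was higher by 0.32 in Hdac6 KD (adjusted p 0.0890), a call lost under 12 of 18 alternatives, any control, Tip60 or Hdac6 KD array left out among them (0.24 to 0.41). The double KD changes were -0.27 for Tcf12 (adjusted p 0.141) and 0.21 for Tcf4 (adjusted p 0.221), and the third E protein was not called either. Of 9 other MAP kinase phosphatases 8 were tested, with 1 higher and 2 lower upon Tip60 KD, 1 and 1 upon Hdac6 KD, and 2 and 3 upon double KD. Dusp1 fell by 0.81, 0.75 and 0.57, Dusp4 by 0.53 in Tip60 KD and 0.36 in double KD (not called without control KD array A or double KD array A, at -0.30 in both cases), and Dusp6, an ERK phosphatase, rose by 0.56 in Hdac6 KD and 0.66 in double KD.

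**Figure D4:**
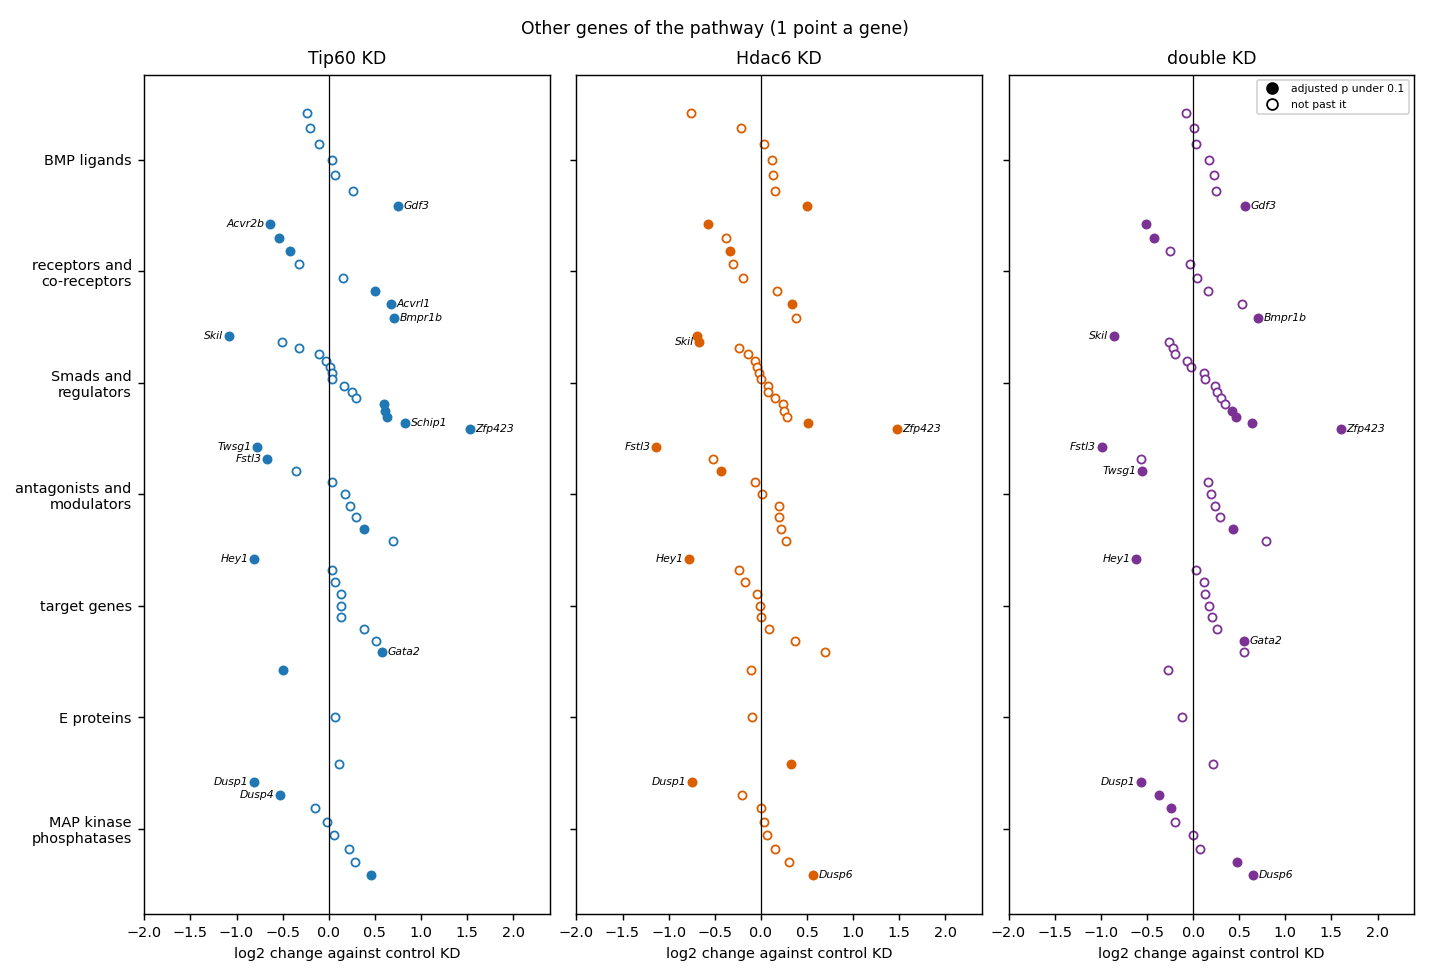
Log2 change against control KD of every tested gene of the 7 pathway lists, 1 panel a knockdown and 1 row of points a list. Filled points passed the adjusted p of 0.1, and labelled genes are those named in the text with a called change past 0.5; Zfp423 lies furthest right, between 1.47 and 1.60.

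Markers of other cell types were set beside these changes, since Id genes are expressed in many lineages. Of 6 trophectoderm markers 3 were tested (Tfap2c, Ascl2 and Krt7), while the defining Cdx2, Elf5 and Gata3 were not. Tfap2c and Ascl2 were lower in Tip60 KD and double KD, and Ascl2 in Hdac6 KD. Krt7 was called lower in each knockdown, but it passed the filter on low signal only through the control KD arrays. It could therefore only come out lower. Their summed signal was 11.6 to 13.1 for control KD, 4.63 to 5.09 for Tip60 KD, 8.96 to 9.82 for Hdac6 KD and 5.54 to 6.37 for double KD. Tfap2c made up 92.1% of that sum in control KD, by group mean levels, and fell by 1.38 in Tip60 KD and 1.08 in double KD, while Krt7 was at the floor on all 6 knockdown arrays.

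Of 10 primitive endoderm markers 5 were tested, and the defining Gata6 and Sox7 were not. In Tip60 KD 2 were higher, and Hdac6 KD and double KD had 1 each. Col4a1, a basement membrane collagen, rose by 1.62, 0.43 and 1.45 in the 3 knockdowns. Gata4, Sox17 and Lama1 were not called in Tip60 KD, and none of the 5 was called lower in any knockdown. By group mean levels, Gata4 made up 2.5% of the summed signal in control KD and 1.3%, 1.9% and 1.3% in Tip60, Hdac6 and double KD. The sums of 12.3 to 14.5 for control KD, 18.2 to 21.4 for Tip60 KD, 13.4 to 15.7 for Hdac6 KD and 17.0 to 22.0 for double KD came mostly from Sparc (66.4% in control KD), which rose by 0.64 in Tip60 KD and was not called in double KD (0.55, adjusted p 0.137). The 3 tested mesoderm markers of 8 summed to 1.07 to 1.37 for control KD and 1.67 to 1.71, 1.52 to 1.57 and 1.40 to 1.58 for Tip60, Hdac6 and double KD, so that each knockdown array lay above control KD. Among them Eomes rose by 0.84 in Tip60 KD, and the defining T, Mixl1 and Mesp1 were not tested. Of the 3, 2 were not called in Tip60 KD, and all 3 were not called in Hdac6 KD or in double KD.

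The 6 tested neural markers of 7 summed to 2.09 to 2.55 for control KD, 2.66 to 2.94 for Tip60 KD, 2.42 to 2.92 for Hdac6 KD and 2.58 to 2.96 for double KD. Map2 rose by 0.56 in Tip60 KD and 0.68 in double KD, and Pax6 was at the floor on 6 of 8 arrays. Of the 6, 5 were not called in Tip60 KD or in double KD, and all 6 were not called in Hdac6 KD. By group mean levels, Sox1 made up 39.2% of the sum in control KD and 32.5%, 35.9% and 33.5% in Tip60, Hdac6 and double KD. The 5 tested fibroblast markers of 8 summed to 1.99 to 2.24 for control KD, 2.67 to 3.12 for Tip60 KD, 2.09 to 2.17 for Hdac6 KD and 2.79 to 3.06 for double KD. Col1a1 rose by 0.98 and 0.79 and Thy1 by 0.47 and 0.53 in Tip60 and double KD. Of the 5, 3 were not called in Tip60 KD or in double KD, and all 5 were not called in Hdac6 KD. Thy1 made up 69.2% of the sum in control KD, by group mean levels. Col1a2, Postn and Dcn were not tested. The part of these markers in the changes of the 10 genes was not tested.

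The genes whose profile over the 8 arrays lay nearest to each gene were found among 14120 genes above the floor on all arrays, by the root mean square difference of centred log2 values. Nearest to Id3 were Rhof (0.18), Cd74 (0.21) and Slc9a3r1 (0.22). Nearest to Id4 were Taf6l (0.09), Ajuba (0.10) and Accsl (0.11), and to Id2 Daglb (0.09), Tlr2 (0.09) and 1700097N02Rik (0.10). Smad6 lay nearest to Poc1a (0.04), Ramp2 (0.05) and Jarid2 (0.05), and Bmp4 to Arhgef19 (0.05), Scamp2 (0.05) and Plpp1 (0.05). For Bmpr1a they were Ube2e1 (0.04), Ctsa (0.06) and Otud4 (0.07), and for Dusp9 Aldh18a1 (0.08), Hcfc1r1 (0.09) and Ifi30 (0.09). Id1, at the floor on 2 arrays, and Smad1 and Smad5, whose group means spanned less than 0.5, were left out. No gene lay as near to Id3 as the nearest genes did to the other 6. The distance was not scaled to the span of the group means, which was 2.14 for Id3 and 0.53 to 1.06 for the other 6, so that it does not single out Id3.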

How the data were processed

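RNA from 8 cultures was measured on 1-colour Agilent mouse arrays, 2 per group. Per the file headers, the deposited intensity values came from Agilent Feature Extraction 10.7.1.1, which had taken a background off each spot and corrected for spatial trends, leaving arrays unscaled to each other. The authors' series matrix holds log2 values that rank probes as the median spot signal does; how they were scaled is not given in the sources used here. The arrays' number limits the precision.

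Spots marked as outliers were dropped and the spots of a probe averaged. Each array's processed signal was scaled to its 75th percentile, values under one floor for all arrays were set to that floor, and log2 was taken. The floor (-2.71) came from the array whose dimmest spot well above background was brightest. The 22594 probes that exceeded both limits on 2 or more arrays were kept, and a gene was represented by its brightest probe. Symbols came from RefSeq by accession for 27228 probes, and probe positions are those of the files (mm9), for which no exon annotation was used here. All 4 groups were fitted together in limma 3.58.1 (R 4.3.3) without a block, with Benjamini-Hochberg adjustment over 18116 genes. Every adjusted p in the text is limma's, 2-sided, at the study's threshold of 0.1. Each p-value sets a difference of means against the spread between the 2 replicates of a group. That spread was pooled over all 4 groups and drawn by limma toward that of all genes. Each slide held 1 array per group, so that replicate letter and slide coincide and pair the arrays: A minus B differences correlated between all groups (6 correlations across genes, 0.651 to 0.799). Group and position on the slide cannot be told apart. The steps were run on simulated data with independent noise on each array. The simulation held no shared slide effect, so that it does not test the fit under the pairing by slide. Figures were drawn with matplotlib.

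The 10 genes and the gene lists were chosen with earlier results of these data known. Named genes are the 10, the targeted genes, at most 3 per pathway list with the largest called change, and the 3 nearest profiles. Alternatives covered the block, background, normalization, floor, filter, probe choice, samples in the fit, threshold and each array left out. A background taken from the negative control spots, and alternatives for genes outside the 10, were added after seeing the data. No tables of the authors' own comparisons were used.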

Additional observations from a re-analysis of the deposited data

Results flagged for a closer look

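The effect of one knockdown differed with the presence of the other, by the interaction term of the limma fit, for 4 of the 10 genes (n = 2 arrays per group). This stands beside 22% of all genes tested. The interaction was -1.78 for Id3 (adjusted p 0.00912), -0.90 for Id1 (adjusted p 0.0236), -0.54 for Id4 (adjusted p 0.0629) and -0.41 for Smad6 (adjusted p 0.0852), all on the log2 scale. Its sign was negative on both slides for each of them, between -1.94 and -1.62 for Id3, -1.11 and -0.69 for Id1, -0.61 and -0.47 for Id4, and -0.45 and -0.37 for Smad6. The calls of Smad6, Id4 and Id1 were lost under 14, 8 and 3 alternatives, and that of Id3 under none of those run. With 2 arrays per group, no group was large enough for a test of outlying samples.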

How the results depend on the processing

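Over 18 alternatives, 1246 values of the 10 genes were recomputed: 1134 kept their side of the threshold, 90 lost a call, 22 gained one and 0 reversed. Among the 1134, 39 that were not called changed sign. Of 1024 values of 19 other named genes, 73 lost a call, 15 gained one and 0 reversed. Where counts of called genes moved, the cause was not tested. For double KD against Hdac6 KD the count of 2 became 0 at an adjusted p under 0.05, 4 after quantile normalization, 1 with the series matrix values, 0 with the low floor, 1 with no filter on dim probes and 0 with only the groups compared in the fit. Over all genes, the 1829 calls of that comparison became 950, 2007, 1056, 186, 1588 and 0 in the same order. The genes tested were then 28738 with the low floor and 30397 with no filter. The interaction count of 4 became 2 at an adjusted p under 0.05, 2 after quantile normalization, 2 with the series matrix values, 1 with the low floor and 2 with no filter. The 3990 interaction calls over all genes became 2516, 4049, 2948, 1114 and 3085 in the same order. For Tip60 KD against Hdac6 KD the 4 calls became 1 with the low floor and 1 with only the groups compared. Its 4251 calls over all genes became 1830 and 2411. With the replicate letter as a block, which pairs the arrays by slide, double KD against Tip60 KD went from 0 to 5 and double KD against Hdac6 KD from 2 to 6. The shares of all genes called with the block were 26.2% and 29.4%. The block also added Id2 in Hdac6 KD, Id1 and Id4 in Tip60 KD against Hdac6 KD and the Bmpr1a interaction (0.42), and it removed no call. Leaving out 1 array at a time gave 7 to 8 genes in Tip60 KD, 4 to 6 in Hdac6 KD, 7 to 8 in double KD, 0 to 0 for double KD against Tip60 KD, 0 to 2 for double KD against Hdac6 KD, 0 to 4 for Tip60 KD against Hdac6 KD and 2 to 3 for the interaction. Where an array was left out, the lone array of that group was assumed to vary like the others. Over all genes, the calls for double KD against Tip60 KD moved from 672 to 4748 with the block, to 65 at an adjusted p under 0.05 and to 1 after normexp correction, and those for the interaction from 3990 to 8528 with the block. Signal over background limits Id1 and the other probes at the floor.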
